A study of Homo sapiens with 9 samples.

Results

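The data describe 53 cell cycle and DNA replication genes in SNU-398, a human hepatocellular carcinoma (HCC) cell line. The members were taken by gene name: 23 S-phase genes and 30 mitotic genes, among 60642 gene names listed. All 53 were present and passed the filter on low counts, which left 18574 genes for testing. Bulk RNA was sequenced from 3 groups of 3 libraries: cells carrying a vector control, cells stably overexpressing the full-length homeobox gene EMX1 (EMX1-FL), and cells stably overexpressing EMX1-X1, a splice isoform with another last exon. All 3 groups were made by lentiviral infection and selected with puromycin, so the controls share the virus and the drug. The promoter that drives the transgene is not given in the sources used here, nor is it stated whether the lines are clones or pools, or whether the 3 libraries of a group came from separate cultures. The p-values therefore measure the spread between libraries, which may be technical.

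A dividing cell copies its DNA in S phase and then parts the copies in mitosis. In late G1, cyclin E and the E2F factors switch on the replication genes: the MCM helicase is loaded at origins, CDC45 and GINS activate it, and polymerases, the PCNA clamp and the enzymes of nucleotide supply follow. In G2 and mitosis a second set is transcribed, including cyclin B, the Polo-like and Aurora kinases, motor proteins and kinetochore parts, and the factor FOXM1 drives many of these genes. In tumors, high levels of both sets are commonly read as a sign of proliferation, and MKI67, the gene of the Ki-67 antigen, is the usual marker.

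The S-phase and mitotic members carried different motifs in their promoters. Both the gene lists and the motifs were picked from what is known of these classes. The shares therefore describe the lists and not the groups of libraries. RefSeq promoter windows (GRCh38.p14, from 250 bases before to 50 after each gene's start) were found by symbol for 20 S-phase members, 23 mitotic members and 11530 of the genes tested. The E2F site was searched as TTTCCCGC, TTTCGCGC, TTTGCCGC and TTTGGCGC on both strands. It was held by 14 of the 20 S-phase members (70%), by 2 of the 23 mitotic members (8.7%) and by 6.58% of all genes. The cell cycle homology region (CHR), a site of mitotic promoters, was searched as TTTGAA and TTCGAA. It was held by 2 S-phase members (10%), by 17 mitotic members (73.9%) and by 15.7% of all genes. The CCAAT box was held by 65%, 78.3% and 43.1%, and a CHR together with a CCAAT box by 10%, 60.9% and 6.64%. A gene with several windows counted once if any of them matched, and a match says only that these letters lie in the window. The members outside the table were MCM4, MCM5, CCNE2, AURKA, BUB3, TPX2, TTK, UBE2C, BIRC5 and FOXM1.

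An S-phase pair (MCM6 and E2F1) and a mitotic pair (PLK1 and CDC20) show the contrast, but they do not stand for every member. MCM6 has the most E2F matches of any member and also holds a CHR with a CCAAT box. Of the mitotic members with a window, CCNB1, CCNA2, AURKB, CENPE, KIF20A and KIF2C held no CHR match. MCM6 and PLK1 are shown because they carry nominal differences below, and E2F1 and CDC20 because each has a single window with matches of its own class. Capitals mark E2F, CHR and CCAAT matches. In MCM6 (chr2:135876394-135876693, minus strand) the 4 E2F matches begin at positions -152, -148, -90 and -86 from the start and overlap in pairs on opposite strands, CCAAT boxes begin at -100 and -58, and 1 CHR match lies at -246. In E2F1 (chr20:33686336-33686635, minus strand) the E2F matches begin at -33 and -20. In PLK1 (chr16:23678639-23678938, plus strand) a CCAAT box begins at -73 and the CHR at -29. In CDC20 (chr1:43358731-43359030, plus strand) CHR matches begin at -178 and -65, with CCAAT boxes at -100 and -55.
MCM6: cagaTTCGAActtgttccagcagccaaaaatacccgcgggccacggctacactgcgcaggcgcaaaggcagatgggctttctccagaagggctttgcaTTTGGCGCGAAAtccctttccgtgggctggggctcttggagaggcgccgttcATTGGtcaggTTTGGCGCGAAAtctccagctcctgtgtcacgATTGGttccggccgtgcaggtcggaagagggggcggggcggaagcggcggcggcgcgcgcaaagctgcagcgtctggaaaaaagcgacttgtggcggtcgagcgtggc
E2F1: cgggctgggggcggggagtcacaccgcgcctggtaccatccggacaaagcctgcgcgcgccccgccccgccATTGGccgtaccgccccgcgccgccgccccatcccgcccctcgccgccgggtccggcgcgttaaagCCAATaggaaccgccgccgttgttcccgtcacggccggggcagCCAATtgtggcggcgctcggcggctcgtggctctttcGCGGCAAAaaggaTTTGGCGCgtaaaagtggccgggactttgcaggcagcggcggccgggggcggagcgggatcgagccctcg
PLK1: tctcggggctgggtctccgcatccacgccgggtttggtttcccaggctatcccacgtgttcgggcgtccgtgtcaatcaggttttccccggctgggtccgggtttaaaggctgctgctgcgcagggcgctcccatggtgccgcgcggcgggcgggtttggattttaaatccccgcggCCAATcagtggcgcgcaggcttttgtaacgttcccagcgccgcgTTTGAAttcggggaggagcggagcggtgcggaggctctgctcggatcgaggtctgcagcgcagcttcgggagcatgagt
CDC20: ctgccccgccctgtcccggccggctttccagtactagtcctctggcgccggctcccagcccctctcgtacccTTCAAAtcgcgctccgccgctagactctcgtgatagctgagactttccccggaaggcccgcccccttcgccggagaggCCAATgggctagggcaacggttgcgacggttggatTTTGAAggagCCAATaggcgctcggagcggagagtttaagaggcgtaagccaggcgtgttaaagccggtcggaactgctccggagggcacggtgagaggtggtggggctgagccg

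Each library held 21562703 to 25197970 counts, and the members together took 0.692% to 0.758% of them. The targeted gene followed the labels. EMX1 was at 9.34, 9.99 and 12.9 CPM (counts scaled to library size, with trimmed-mean factors) in the vector controls, at 251, 135 and 145 CPM in EMX1-FL and at 145, 294 and 288 CPM in EMX1-X1. Both isoforms share the gene's first exons, and the gene-level counts do not part them. The two-sided exact permutation p was 0.1 for either isoform against the control, the smallest that 3 against 3 can give. The proliferation marker MKI67 was present at 73.2 to 137 TPM (transcripts scaled to gene length and library size). Liver lineage markers were nearly absent: 2 of 9 reached 1 TPM in any library, their sum was at most 3.4 TPM (0.563 to 1.04 in the vector control, 1.91 to 3.4 in EMX1-FL and 1.14 to 2.61 in EMX1-X1), and AFP, TTR and KRT18 were at 0. No leukocyte or endothelial marker reached 1 TPM, whereas VIM, the mesenchymal filament gene, was at 703 to 1116 TPM. The libraries were also split into 2 clusters, by the sign of the first principal component after group means were removed. By this construction each group holds libraries of both clusters. The split went with GC content. Cluster A holds vector control 1 and 2, EMX1-FL 2 and 3 and EMX1-X1 1, and cluster B holds vector control 3, EMX1-FL 1 and EMX1-X1 2 and 3. Nothing in the labels says what the clusters are.

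Nearly all members were highly expressed. In the vector control, 31 of the 53 lay at or above the 90th percentile of TPM over the genes tested and 52 at or above the 50th. The median level was 91.3 TPM for the S-phase members and 104 TPM for the mitotic members. PCNA, the sliding clamp of the replication fork, was the most abundant S-phase member at 471 ± 38.6 TPM in the vector control, 494 ± 46.7 in EMX1-FL and 420 ± 28.4 in EMX1-X1 (SD, n = 3). CCNE2, a cyclin E gene, was the lowest at 7.84 ± 1.08, 10.3 ± 2.07 and 6.87 ± 0.671 TPM. CCNE1, the other cyclin E gene, was the next lowest at 12.9 ± 1.4, 18 ± 2.97 and 16.2 ± 0.944 TPM. The pair therefore stood far below the helicase subunits that act after it. Among mitotic members TPX2, a spindle assembly factor, was the highest at 356 ± 20.3, 372 ± 79.7 and 410 ± 13.7 TPM. CENPE, a kinetochore motor, was the lowest at 27.4 ± 13.8, 34.6 ± 12.6 and 26.5 ± 14.4 TPM. The 6 MCM subunits, which form one hexameric ring, were not listed at equal levels per length. In the vector control MCM3 was at 266 TPM, MCM7 at 167, MCM6 at 151, MCM5 at 108, MCM4 at 86.1 and MCM2 at 58.7. For MCM2, 23.6% of the exon bases are shared with another listed gene, as are 37.1% for CCNE2 and 47.5% for TYMS, and reads there may go uncounted.

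**Figure D1:**
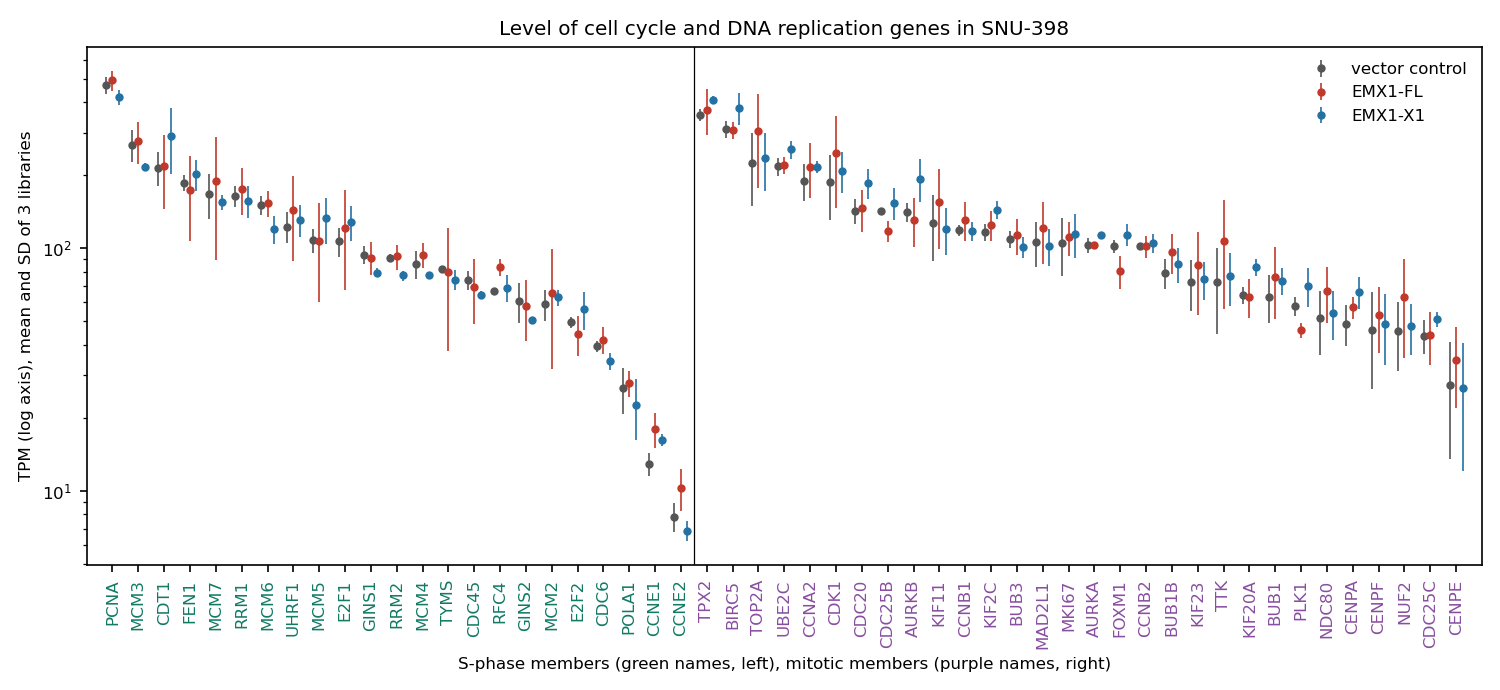
TPM (log axis) of the 23 S-phase members (left, green names) and 30 mitotic members (right, purple names), each class ordered by the vector control mean. Points are means and bars the SD of 3 libraries of vector control (grey), EMX1-FL (red) and EMX1-X1 (blue). PCNA, at 471 TPM in the vector control, and TPX2, at 356 TPM, lead their classes, and CCNE2, at 7.84 TPM, is the lowest of all.

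MKI67 (chr10:128096659-128126423, GRCh38, as are the gene positions below) did not differ between groups beyond the spread of its libraries. Its CPM values were 431, 423 and 288 in the vector controls, 339, 368 and 434 in EMX1-FL and 468, 393 and 310 in EMX1-X1. The ranges overlap, and the lowest value is a control. Its log2 fold change was -0.0005 (95% interval -0.45 to 0.45) for EMX1-FL and 0.04 (-0.41 to 0.48) for EMX1-X1 against the control, with exact permutation p of 0.8 for both. Changes smaller than these intervals could not be detected at this spread. In bulk RNA, fewer cycling cells and less RNA per cycling cell cannot be told apart.

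With the members of each class averaged, the vector control and EMX1-FL libraries varied widely within their groups, and the EMX1-X1 libraries lay closer together. The S-phase mean, as a log2 difference from the vector control mean, was -0.19, 0.00 and 0.19 in the 3 vector controls, 0.26, -0.07 and -0.32 in the 3 EMX1-FL libraries and -0.18, -0.14 and -0.11 in the 3 EMX1-X1 libraries. The mitotic mean was 0.12, 0.00 and -0.13 in the vector controls, -0.23, 0.08 and 0.22 in EMX1-FL and 0.16, 0.06 and -0.03 in EMX1-X1. In each group the library highest in S-phase genes was the lowest in mitotic genes, and EMX1-FL 1 and 3 lay at the 2 ends. The S-phase mean minus the mitotic mean was 0.00 ± 0.32 in the vector control, -0.07 ± 0.52 in EMX1-FL and -0.21 ± 0.13 in EMX1-X1 (SD, n = 3). The differences between the groups were smaller than the spread of the vector controls. The summed level of the S-phase members was 2707 ± 218, 2832 ± 547 and 2645 ± 128 TPM in the same order, and that of the mitotic members 3573 ± 384, 3900 ± 697 and 4034 ± 127 TPM.

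**Figure D2:**
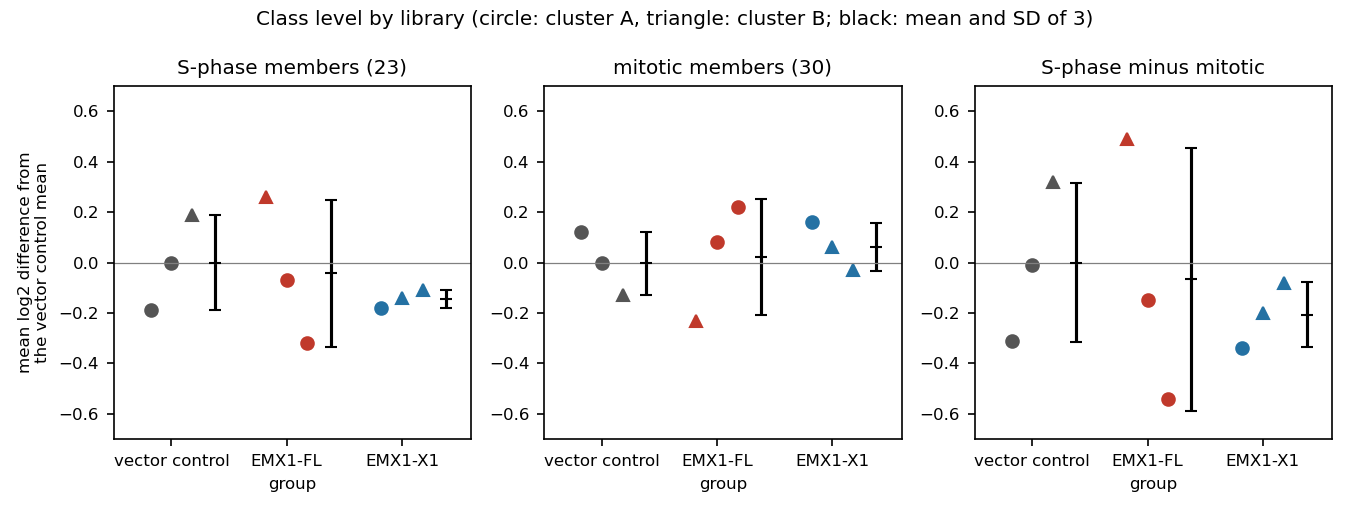
Mean log2 difference from the vector control mean over the S-phase members, over the mitotic members, and the S-phase minus the mitotic mean, for each library. Circles are libraries of cluster A, triangles of cluster B, and black bars the mean and SD of 3. EMX1-FL 1, at 0.49, and EMX1-FL 3, at -0.54, span the widest range of the S-phase minus mitotic difference.

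EMX1-FL cells differed little from vector control cells in either class. Of the S-phase members 9 were higher and 14 lower, with a median log2 fold change of -0.03. Of the mitotic members 15 were higher and 15 lower, with a median of 0.02, against 0.05 over all genes tested. At an unadjusted p under 0.05 in edgeR's quasi-likelihood test 0 S-phase members and 2 mitotic members (FOXM1 and PLK1, both lower) were called, 3.77% of all members against 5.8% of all genes. None passed the study's threshold, which adds a log2 fold change of at least 1 and takes 2.42% of all genes, and none passed an adjusted p under 0.05, which takes 0.07%. The smallest adjusted p of a member was 0.789. For 49 of the 53 members the 95% interval lay within a log2 change of 1 in either direction, so doubling or halving lay outside it. The groups did not overlap for 1 S-phase member (RFC4, of the clamp loader, higher) and 4 mitotic members (PLK1, AURKA, FOXM1 and CDC25B, all lower), against 10.5% of all genes. Without EMX1-FL replicate 1, 13 members (24.5%) had an unadjusted p under 0.05, beside 16.4% of all genes. Without vector control replicate 3, EMX1-FL replicate 2 or EMX1-FL replicate 3 there were 0, beside 4.55% to 5.19% of all genes.

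FOXM1 (chr12:2857681-2877155), the transcription factor of the G2 and mitotic program, was lower in EMX1-FL cells than in controls. Its CPM values were 140, 130 and 156 in the vector controls, 127, 95.8 and 93.3 in EMX1-FL and 130, 154 and 161 in EMX1-X1. Every EMX1-FL library lay below every control library, and the EMX1-X1 values overlapped the controls. The log2 fold change of EMX1-FL against the control was -0.43 (SE 0.18, 95% interval -0.82 to -0.05, unadjusted p = 0.0302, edgeR adjusted p = 0.789). It was -0.51 within cluster A and -0.30 within cluster B (1 library against 1), a direction that the lack of overlap fixes. Over the 21 alternative settings the log2 fold change lay between -0.59 and -0.34 and the edgeR adjusted p between 0.0152 and 1. It was 0.0349 with the cluster as a covariate, a term taken from these same libraries, in a fit where 284 genes passed against 13. FOXM1 shares 15.9% of its exon bases with ITFG2.

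PLK1 (chr16:23677656-23690367), the Polo-like kinase that acts at mitotic entry and on the spindle, followed the same order. Its CPM values were 71.9, 71.2 and 93 in the vector controls, 64.1, 55.1 and 56 in EMX1-FL and 70.7, 92.5 and 103 in EMX1-X1. The 3 EMX1-FL libraries were the lowest of the 9. The log2 fold change of EMX1-FL against the control was -0.43 (SE 0.19, 95% interval -0.85 to -0.01, unadjusted p = 0.0441, edgeR adjusted p = 0.845), and it was -0.37 within cluster A and -0.54 within cluster B, its direction there again fixed by the lack of overlap. Of its exon bases, 12.8% are shared with other listed genes. CDC25B (chr20:3786772-3806121), a phosphatase that activates cyclin-dependent kinases at mitotic entry, lay beside them. Its CPM values were 164, 166 and 194 in the vector controls, 152, 123 and 131 in EMX1-FL and 146, 187 and 198 in EMX1-X1. The EMX1-FL libraries lay below the controls without overlap, with a log2 fold change of -0.37 (95% interval -0.74 to 0.01, unadjusted p = 0.054, edgeR adjusted p = 0.864).

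In EMX1-X1 cells most S-phase members were slightly lower than in the vector control. Of the S-phase members 6 were higher and 17 lower, with a median log2 fold change of -0.25, and of the mitotic members 20 were higher and 10 lower, with a median of 0.05, against 0.01 over all genes tested. At an unadjusted p under 0.05 only MCM6 was called (lower), 1.89% of all members against 8.11% of all genes. None passed the study's threshold (2.5% of all genes) or an adjusted p under 0.05 (0.00538% of all genes), and the smallest adjusted p of a member was 0.575. For 52 of the 53 members the 95% interval lay within a log2 change of 1, CENPE being the exception. The groups did not overlap for 6 S-phase members (MCM6, CDC6, GINS1, GINS2, RRM2 and CDC45), all lower, against 14.7% of all genes. They did not overlap for 3 mitotic members that were higher (AURKA, KIF20A and TPX2) and for 1 that was lower (BUB3, a checkpoint protein). Without EMX1-FL replicate 1, 4 members (7.55%) had an unadjusted p under 0.05, beside 14.6% of all genes. Without vector control replicate 2 or 3, or EMX1-X1 replicate 2 or 3, there were 0, beside 3.35% to 7.22% of all genes.

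MCM6 (chr2:135839626-135876443), a subunit of the replicative helicase, had the largest S-phase difference here. Its CPM values were 153, 190 and 191 in the vector controls, 173, 192 and 144 in EMX1-FL and 151, 118 and 126 in EMX1-X1. All EMX1-X1 libraries lay below the controls, but the highest of them was only just under the lowest control. The log2 fold change of EMX1-X1 against the control was -0.44 (SE 0.18, 95% interval -0.82 to -0.05, unadjusted p = 0.0299, edgeR adjusted p = 0.575). It was -0.17 within cluster A and -0.65 within cluster B, where the lack of overlap fixes the direction. PCNA, the anchor of the replication genes, was at 166, 202 and 198 CPM in the vector controls, 192, 203 and 161 in EMX1-FL and 168, 147 and 154 in EMX1-X1. The lowest control lay just inside the EMX1-X1 range, and the log2 fold change was -0.27 (95% interval -0.62 to 0.08, edgeR adjusted p = 0.657).

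Between the isoforms, most of the few members called were mitotic genes lower in EMX1-FL, but the mitotic members as a whole were nearly evenly split. Against EMX1-X1, EMX1-FL cells had 18 S-phase members higher and 5 lower, with a median log2 fold change of 0.20, and 14 mitotic members higher and 16 lower, with a median of -0.02, against 0.02 over all genes tested. At an unadjusted p under 0.05, 1 S-phase member (CCNE2, higher) and 5 mitotic members (PLK1, FOXM1, AURKB, KIF20A and CDC25B, all lower) were called, 11.3% of all members against 7.63% of all genes. None passed the study's threshold (1.42% of all genes) or an adjusted p under 0.05 (0% of all genes in edgeR, where DESeq2 called 2 genes and no member), the smallest adjusted p being 0.611. For 44 of the 53 members the 95% interval lay within a log2 change of 1. The groups did not overlap for 2 S-phase members (MCM4 and CCNE2, higher) and 4 mitotic members (PLK1, AURKA, KIF20A and FOXM1, lower), against 8.38% of all genes. This comparison shares its libraries with the other two, so its calls are no separate evidence. EMX1-FL has 1 library in cluster B and EMX1-X1 has 2. PLK1, FOXM1, AURKB and CDC25B were higher in cluster B, by log2 differences of 0.30 to 0.42. KIF20A differed by 0.01 and CCNE2 by -0.25. With the cluster as a covariate the log2 fold changes were -0.47 for PLK1, -0.40 for FOXM1 and -0.41 for AURKB. They were -0.40 for KIF20A, -0.28 for CDC25B and 0.50 for CCNE2. Without EMX1-FL replicate 1, 22 members (41.5%) had an unadjusted p under 0.05, beside 34.7% of all genes. There were 12 (22.6%, beside 20.1%) without EMX1-X1 replicate 1. Without EMX1-FL replicate 2 or EMX1-X1 replicate 2 or 3 there were 1 or 2 (1.89% to 3.77%, beside 2.03% to 2.83%).

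**Figure D3:**
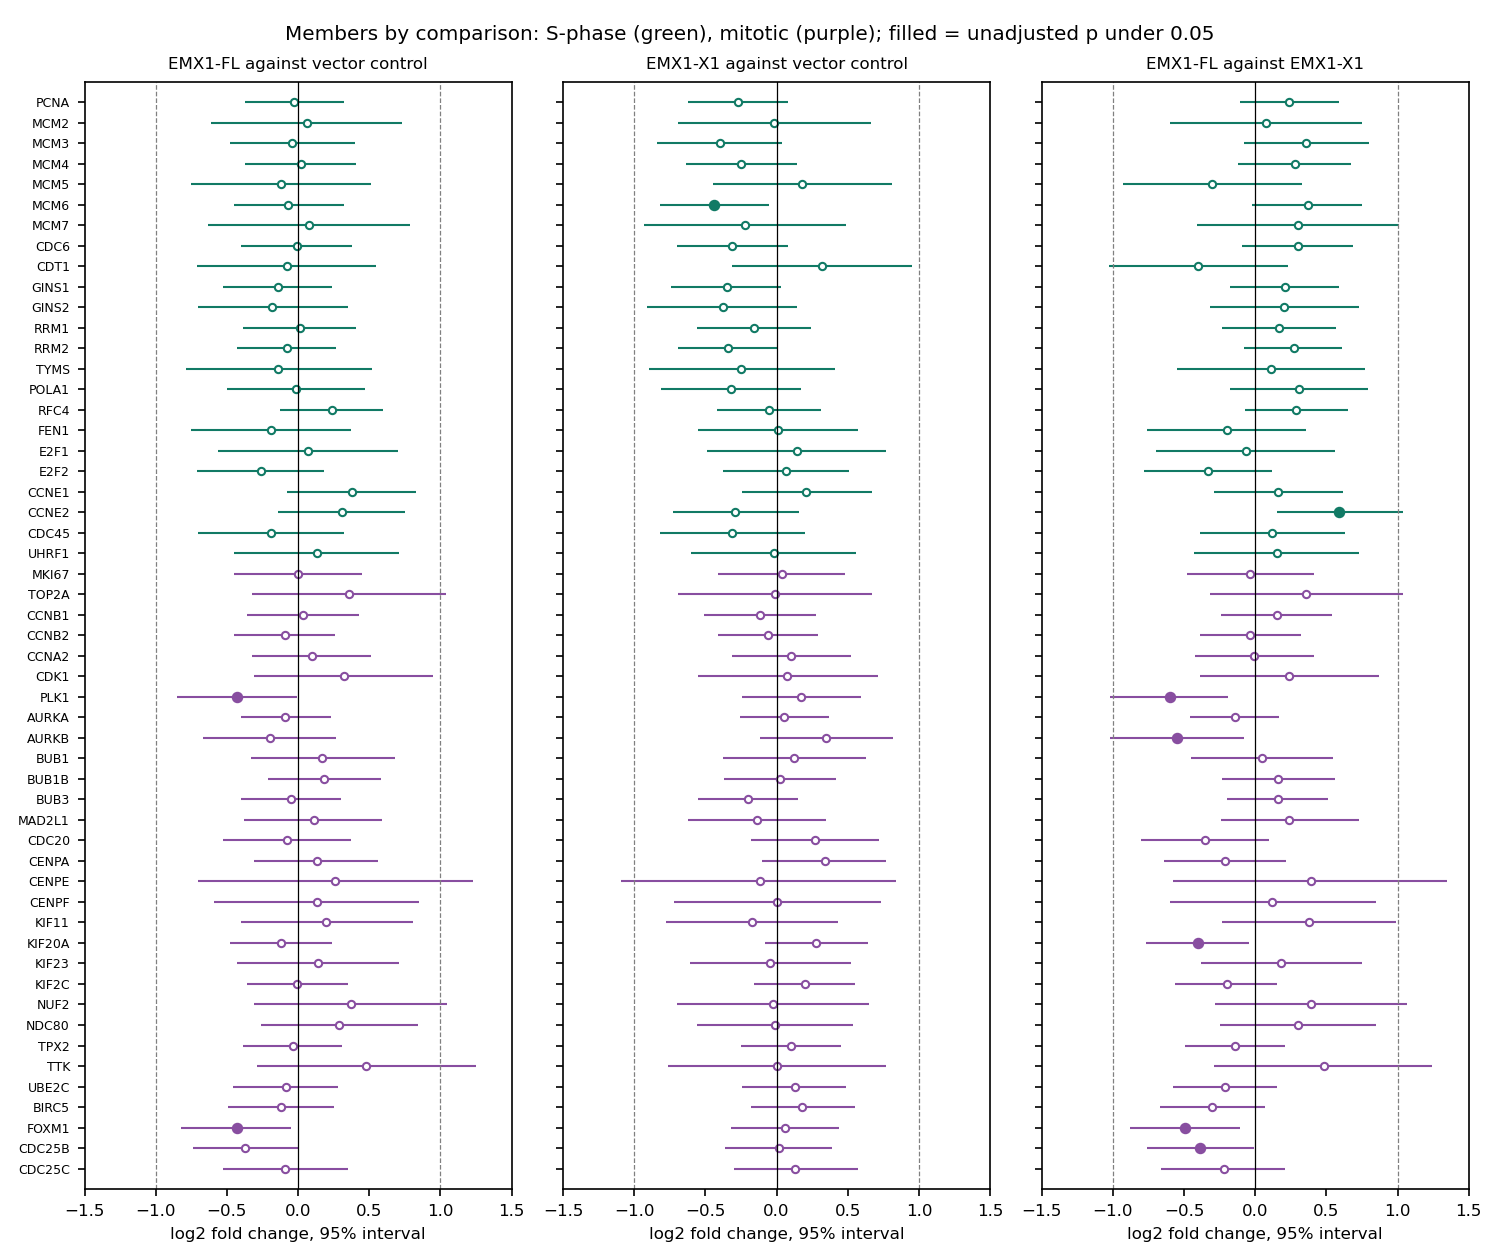
Log2 fold change (points) and 95% interval (lines) of each of the 53 members in the 3 comparisons, S-phase members in green above mitotic members in purple. Filled points have an unadjusted p under 0.05 in edgeR's quasi-likelihood test (2, 1 and 6 members from left to right), and dashed lines mark a log2 change of 1 in either direction, which no point reaches.

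PLK1 had the smallest p of these, lower in EMX1-FL than in EMX1-X1 by a log2 fold change of -0.60 (SE 0.19, 95% interval -1.02 to -0.19, unadjusted p = 0.00846, edgeR adjusted p = 0.611). FOXM1 was lower by -0.49 (95% interval -0.88 to -0.11, unadjusted p = 0.0164, edgeR adjusted p = 0.611). AURKB (chr17:8204733-8210600), the kinase of the chromosomal passenger complex, was at 93.8, 81.9 and 95.2 CPM in the vector controls, 101, 70.6 and 64.3 in EMX1-FL and 88.4, 123 and 134 in EMX1-X1. Within both EMX1 groups its cluster B libraries were the higher ones, and the groups overlapped. Its log2 fold change of EMX1-FL against EMX1-X1 was -0.55 (95% interval -1.02 to -0.08, unadjusted p = 0.0261, edgeR adjusted p = 0.611), or -0.39 within cluster A and -0.34 within cluster B. Without EMX1-FL replicate 1, AURKB was at -0.76 and FOXM1 at -0.63, each with an edgeR adjusted p of 0.0462, in a fit where 1161 of 19195 genes passed. With the GC offset the log2 fold changes were smaller: -0.34 for PLK1, -0.30 for FOXM1 and -0.36 for AURKB.

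KIF20A (chr5:138178719-138187723), a kinesin of cytokinesis, was at 72.5, 67.5 and 71 CPM in the vector controls, 58.5, 59.6 and 75.8 in EMX1-FL and 77.6, 88.7 and 89.9 in EMX1-X1. The EMX1-X1 libraries lay above all others, and the control and EMX1-FL ranges overlapped. Its log2 fold change of EMX1-FL against EMX1-X1 was -0.40 (95% interval -0.77 to -0.04, unadjusted p = 0.0323, edgeR adjusted p = 0.611). CDC25B was lower by -0.39 (95% interval -0.76 to -0.01, unadjusted p = 0.0449, edgeR adjusted p = 0.611), but by -0.07 with the GC offset (edgeR adjusted p = 0.891), where it was no longer called. CCNE2 moved the other way. It was at 10.1, 10.3 and 8.9 CPM in the vector controls, 10.2, 14.9 and 11.2 in EMX1-FL and 8.9, 7.44 and 7.71 in EMX1-X1. All EMX1-FL libraries were above all EMX1-X1 libraries, with a log2 fold change of 0.59 (95% interval 0.15 to 1.04, unadjusted p = 0.0136, edgeR adjusted p = 0.611). Its low level rests on 179 to 353 counts per library. With the GC offset the log2 fold change was 0.26 and the unadjusted p no longer passed 0.05, and with EMX1-FL replicate 2 left out it was 0.41.

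**Figure D4:**
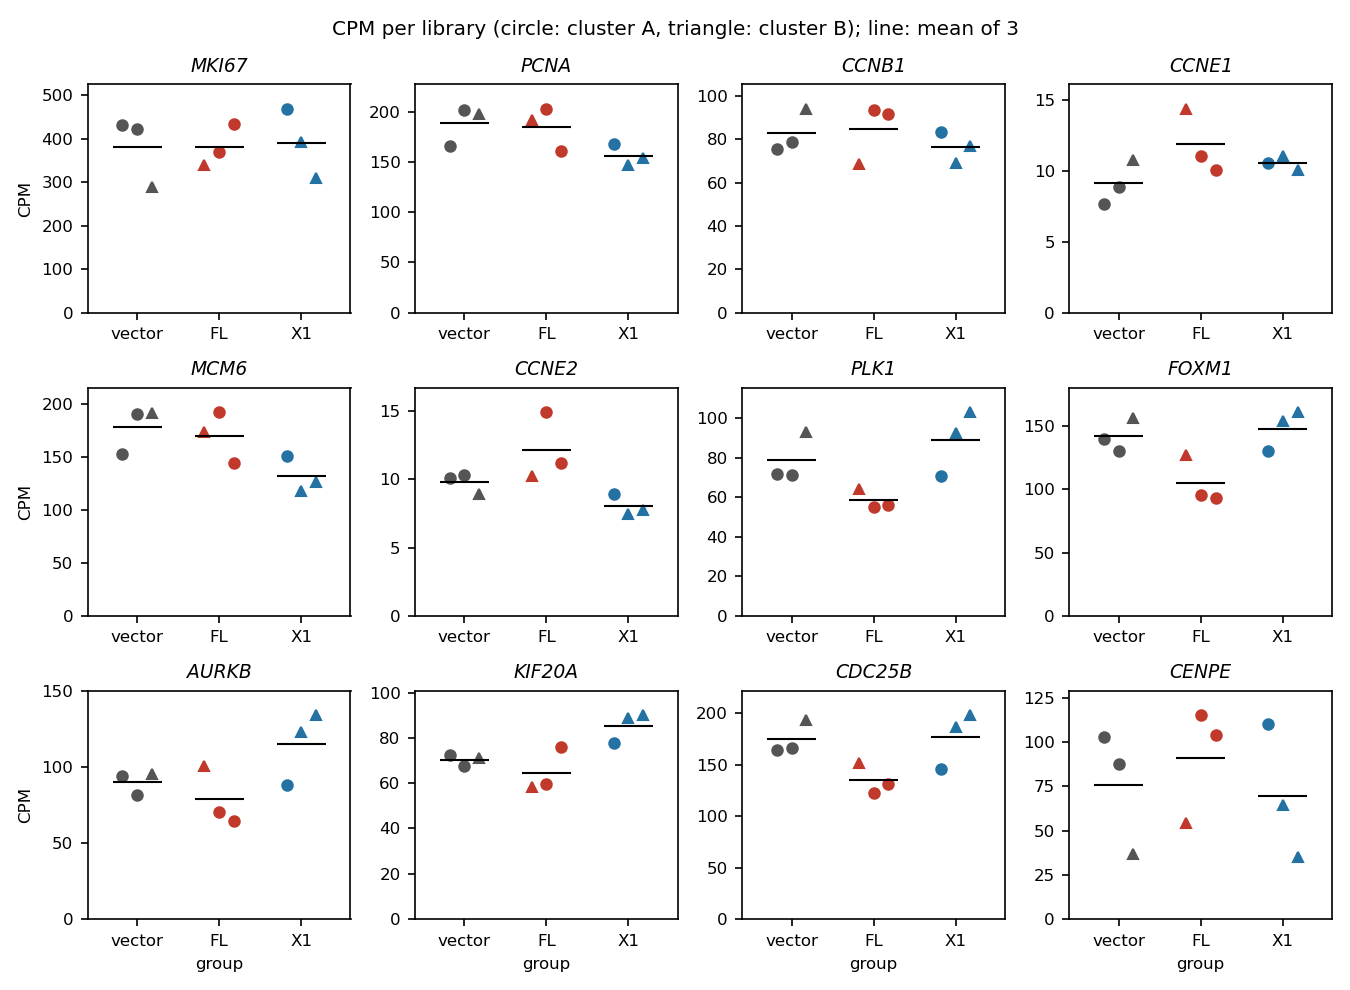
CPM per library of 12 members: the anchors MKI67, PCNA, CCNB1 and CCNE1, the 7 members with a nominal call, and CENPE, the lowest mitotic member. Circles are libraries of cluster A, triangles of cluster B, and the line is the mean of 3. The 3 EMX1-FL values of PLK1, 55.1 to 64.1 CPM, are the lowest of its 9, whereas MKI67 and CENPE vary within every group and are lowest in the triangles.

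By role, the S-phase members fell into smaller groups, formed here after their values were seen. The 3 genes that turn the loaded helicase on (CDC45, GINS1 and GINS2) were all lower in EMX1-X1 than in the control, by log2 fold changes of -0.38 to -0.31, and none had an unadjusted p under 0.05. Among the 6 MCM subunits 5 were lower, with a range of -0.44 to 0.18, and MCM5 was the one that was higher. Over the 21 alternatives MCM5 ranged from -0.17 to 0.34, and MCM2, one of the 5, from -0.32 to 0.15. The genes of nucleotide supply (RRM1 and RRM2 of ribonucleotide reductase, and TYMS, thymidylate synthase) were lower by -0.34 to -0.16. Of the genes of S-phase entry, E2F1, E2F2 and CCNE1 were higher in EMX1-X1, up to 0.21, and CCNE2 was lower at -0.29. CCNE1 and CCNE2 kept their sign over the 21 alternatives. E2F1 ranged from -0.26 to 0.28 and E2F2 from -0.20 to 0.19, so neither kept its sign. The licensing factors CDT1 and CDC6 lay on opposite sides at 0.32 and -0.31, but CDT1 ranged from -0.18 to 0.54 over the alternatives. In EMX1-FL against the control the MCM subunits and nucleotide supply were nearer to 0, with ranges of -0.12 to 0.08 and -0.14 to 0.01. CDC45, GINS1 and GINS2 were all lower there too, by -0.19 to -0.14. The genes of S-phase entry were not nearer to 0, with a range of -0.26 to 0.38. CCNE1 had the largest S-phase value there: it was at 7.67, 8.9 and 10.8 CPM in the vector controls, 14.4, 11.1 and 10.1 in EMX1-FL and 10.6, 11.1 and 10.1 in EMX1-X1. The groups overlapped, and the log2 fold change was 0.38 (95% interval -0.08 to 0.83, edgeR adjusted p = 0.979).

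The mitotic members were grouped by role in the same way. The 3 kinases (PLK1, AURKA and AURKB) were lower in EMX1-FL by log2 fold changes of -0.43 to -0.09 and higher in EMX1-X1 by 0.05 to 0.35, both against the control. Not all kept this within clusters: AURKB in EMX1-FL was at 0.09 within cluster B, with 1 library against 1. In EMX1-X1, within cluster A, PLK1 was at -0.02 and AURKB at 0.01. CDC20 and UBE2C, which serve the anaphase-promoting complex, lay at -0.09 to -0.08 in EMX1-FL and at 0.13 to 0.27 in EMX1-X1. The kinetochore and centromere genes (CENPA, CENPE, CENPF, NUF2 and NDC80) were all higher in EMX1-FL, by 0.13 to 0.37. Over the 21 alternatives NUF2 and NDC80 stayed higher, while CENPA, CENPE and CENPF fell as low as -0.02, -0.08 and -0.17. The kinases have GC contents of 46.6% to 57.1% and the kinetochore and centromere genes 35.3% to 47.8%. The part of GC content in these role groups was not tested. The spindle checkpoint genes (BUB1, BUB1B, BUB3, MAD2L1 and TTK) lay between -0.05 and 0.48 there, and TTK, at 0.48 (95% interval -0.29 to 1.25), was the highest of all members. None of these passed an unadjusted p of 0.05 other than PLK1. The cyclins changed little: CCNB1, the mitotic cyclin, was at 75.5, 78.9 and 94.1 CPM in the vector controls, 68.8, 93.5 and 91.9 in EMX1-FL and 83.6, 69 and 76.8 in EMX1-X1. All 3 ranges overlapped, with log2 fold changes of 0.03 (95% interval -0.36 to 0.43) and -0.12 (-0.51 to 0.28) against the control. The highest mitotic member, TPX2, was at 367, 355 and 375 CPM in the vector controls, 285, 368 and 417 in EMX1-FL and 406, 382 and 388 in EMX1-X1, and its EMX1-X1 libraries lay above the controls by a log2 fold change of 0.10 (95% interval -0.25 to 0.45).

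The 2 library clusters differed in the level of both classes. With the group in the model, the S-phase members were higher in cluster B than in cluster A by a median log2 difference of 0.29 (18 of 23 higher), and the mitotic members were lower by -0.19 (19 of 30 lower). CENPE showed it most: it was at 103, 87.4 and 36.8 CPM in the vector controls, 54.2, 115 and 104 in EMX1-FL and 110, 64.4 and 35 in EMX1-X1. In each group its cluster B libraries were the lowest, and its difference between clusters was -1.20. At the other end CDT1 was higher in cluster B by 0.74. Across the members this difference rose with the GC content of the transcript, with Pearson's r of 0.88 and Spearman's rho of 0.92 over 53 genes, which share the 9 libraries and are not replicates. It was 0.89 within the S-phase members, 0.90 within the mitotic members and 0.76 over all genes. The S-phase members have a median GC content of 49.8% and the mitotic members one of 43.8%. CENPE has 35.3% and CDT1 64.9%. Class and GC content are therefore linked among these genes, and the part of each in the class means above was not tested.

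**Figure D5:**
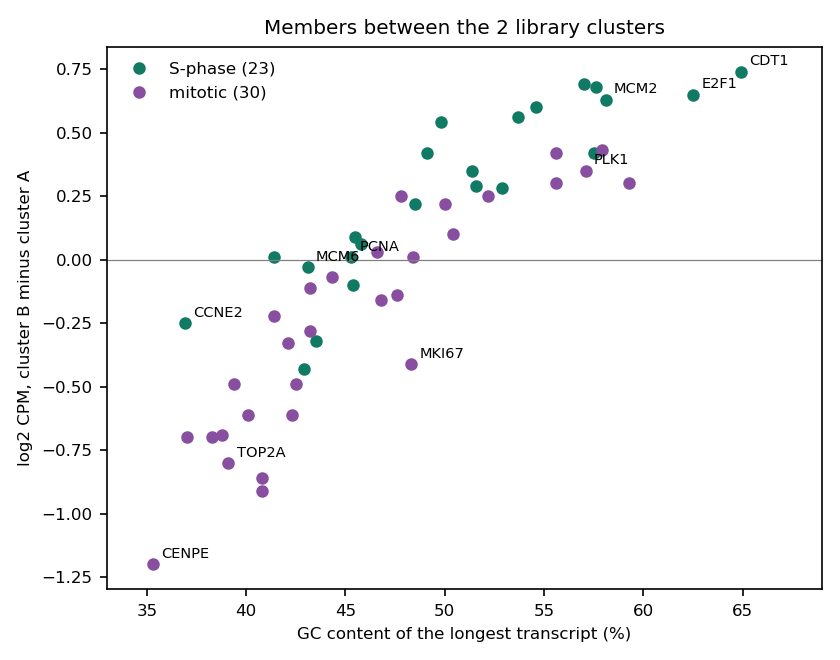
Difference between library clusters (log2 CPM, cluster B minus cluster A, with the group in the model) against the GC content of the longest transcript, for 23 S-phase members (green) and 30 mitotic members (purple). The points run from CENPE, at 35.3% and -1.20, to CDT1, at 64.9% and 0.74.

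Within the clusters, EMX1-X1 against the vector control kept the direction of its class medians. The clusters, and the covariate made from them, were taken from these same libraries. The within-cluster differences are parts of the comparison above and are no separate evidence. For members whose groups do not overlap, the lack of overlap fixes the direction. The S-phase members were lower for 18 of 23 in cluster A (median log2 difference -0.12, 1 library against 2) and for 20 of 23 in cluster B (-0.28, 2 libraries against 1). The mitotic members were higher for 24 of 30 in cluster A (0.11) and for 23 of 30 in cluster B (0.12). With the cluster as a covariate, 10 S-phase members were lower and 4 mitotic members higher at an unadjusted p under 0.05, 26.4% of all members against 12.6% of all genes. With a GC offset added to it, a fit chosen after the data were seen, 15 S-phase members were lower, 5 mitotic members higher and 1 lower (CDC25B), 39.6% of members against 14.9% of all genes. MCM3, a helicase subunit, had the smallest p in that fit, at a log2 fold change of -0.51 (unadjusted p = 0.00123, edgeR adjusted p = 0.0912), followed by GINS2 at -0.52 (edgeR adjusted p = 0.123) and RRM2 at -0.37 (edgeR adjusted p = 0.142). No member passed an adjusted p under 0.05 in either fit.

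In the comparisons with EMX1-FL the class medians did not keep a pattern within clusters. Against the control, the S-phase median was -0.06 in cluster A and 0.03 in cluster B (1 library against 1), and the mitotic median 0.11 and -0.13. Against EMX1-X1, both medians were near 0 in cluster A (0.00 and -0.01), and in cluster B, with a single EMX1-FL library, they were 0.43 and -0.21. With the cluster as a covariate, 8 S-phase members were higher and 5 mitotic members lower than in EMX1-X1 at an unadjusted p under 0.05. None went the other way (24.5% of members against 12.9% of all genes). With the GC offset added these were 9 and 5 (26.4% against 10.5%). No member passed an adjusted p under 0.05 in either fit.

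Other genes of the pathway, listed apart from the members, also showed small differences. All 14 G1 regulators, 23 further replication genes and 32 further mitotic genes were tested, and none passed an adjusted p under 0.05 or the study's threshold in any comparison. In EMX1-X1 against the control 4 of the further replication genes were higher and 19 lower, with a median log2 fold change of -0.21. At an unadjusted p under 0.05, 3 of the 23 were lower, against 8.11% of all genes called in either direction: RPA2 of the single-strand binding protein at -0.41, CLSPN, the checkpoint adaptor claspin, at -0.43, and POLE2, a subunit of polymerase epsilon, at -0.47. The further mitotic genes were evenly placed there (17 higher, 15 lower, median 0.03), with 2 of 32 called higher: KIFC1, a kinesin, at 0.61, and INCENP, the scaffold that binds AURKB, at 0.53. In EMX1-FL against the control 14 replication genes were higher and 9 lower (median 0.04), with RPA2 called at -0.39 (5.8% of all genes called), and 21 mitotic genes were higher and 11 lower (median 0.15), with none called. Between the isoforms 19 replication genes were higher in EMX1-FL and 4 lower (median 0.23), with CLSPN called at 0.51 and POLE2 at 0.52 (7.63% of all genes called). CCND3, a D-type cyclin of G1, was lower in EMX1-FL than in EMX1-X1 at -0.73 (unadjusted p = 0.0185, edgeR adjusted p = 0.611), and CCNF, the F-box cyclin, at -0.57. CCND3 was at 33.7, 29.9 and 39.1 CPM in the vector controls, 42.2, 22.3 and 24.9 in EMX1-FL and 36, 56.8 and 55.3 in EMX1-X1, and the EMX1 groups overlapped.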

How the data were processed

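RNA-seq libraries from SNU-398 cells, 9 in all, were grouped by their labels into vector control, EMX1-FL and EMX1-X1, with 3 each. The authors deposited whole-number read counts per gene name and a table of log2(TPM + 1). The count file header names featureCounts 2.0.1 and Ensembl 99 (GRCh38), the submitters' processing notes name bcl2fastq 2.1.7, fastp, STAR and featureCounts 2.0.6, and the study's methods name RSEM. The deposited log2 values were recomputed from the counts and gene lengths to within 5e-06. Strand use is not given in the sources used here, so reads in overlapping genes cannot be assigned by strand.

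The members, the further pathway lists and the motifs were chosen with earlier results of these data known. Counts were tested with edgeR 4.0.16 (R 4.3.3): filterByExpr (18574 genes kept), TMM factors and the quasi-likelihood F test on all 9 libraries with the group as the only term, leaving 6 residual degrees of freedom. P-values were adjusted by Benjamini-Hochberg over all genes tested, and intervals are 95%. Calls are an unadjusted p under 0.05, the study's threshold, an adjusted p under 0.05, and groups that do not overlap. Members named in full were MKI67, PCNA, CCNB1 and CCNE1, every member with an unadjusted p under 0.05, and the highest and lowest TPM of each class. The fit was tested on simulated data. Library clusters are the sign of the first principal component after group means were removed (46.6% of variance). GC content is that of the longest GENCODE 29 transcript, known for 95.6% of genes tested. The alternatives, 21 in all, include limma 3.58.1 on log2(TPM + 1) and DESeq2 1.42.0. Both fits with a GC offset beside another term, and the within-cluster differences, were chosen after seeing the data.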

Additional observations from a re-analysis of the deposited data

How the results depend on the processing

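The differences of the 7 members with an unadjusted p under 0.05 kept their sign under the 21 alternatives. The further pathway genes were not run under them. The 7 were picked by p in these same libraries. Except for AURKB and CDC25B, their groups do not overlap where they were called, so leaving out a library could hardly change the sign. The medians of both classes moved by less than the spread between replicates (SD 0.22 for S-phase and 0.15 for mitotic members). Most medians were smaller than that spread. The mitotic median changed sign in every comparison, as did the S-phase median of EMX1-FL against the control (-0.20 to 0.08). No member passed the study's threshold in any alternative. The counts of members at an unadjusted p under 0.05 moved most. For EMX1-FL against the vector control the count was 2, and it was 0 with the replicate block (3.87% of all genes). It was 8 with the cluster as a covariate (15.1% of members, 15.1% of all genes) and 5 with the GC offset (9.43%, 12.8%). It was 5 with the GC offset and the block (9.43%, 11.1%) and 9 with the GC offset and the cluster (17%, 17.2%). When a library was left out it was 0 to 13, beside 4.23% to 16.4% of all genes. The highest came without EMX1-FL replicate 1. For EMX1-X1 against the vector control the count was 1. It was 2 with RLE factors, DESeq2, limma on log2(TPM + 1) or log2(TPM + 0.1), or at least 10 counts in every library (3.77%, 7.93% to 9.5%). It was 4 with only the 6 libraries compared (7.55%, 13.2%) and 0 with the block (5.23% of all genes). It was 14 with the cluster (26.4%, 12.6%) and 7 with the GC offset (13.2%, 12.5%). It was 2 with the GC offset and the block (3.77%, 10.3%) and 21 with the GC offset and the cluster (39.6%, 14.9%). When a library was left out it was 0 to 4, beside 3.35% to 17.1% of all genes. For EMX1-FL against EMX1-X1 the count was 6. It was 3 with only the 6 libraries compared (5.66%, 4.43%) and 3 with the block (5.66%, 4.04%). It was 13 with the cluster (24.5%, 12.9%) and 14 with the GC offset and the cluster (26.4%, 10.5%). When a library was left out it was 1 to 22, beside 2.03% to 34.7% of all genes. The highest came without EMX1-FL replicate 1, and it was 12 without EMX1-X1 replicate 1. Members at an adjusted p under 0.05 numbered 0, and 0 to 2 between the isoforms when a library was left out. For EMX1-FL against the control there was 1 (FOXM1) with the cluster, with the GC offset and with both (edgeR adjusted p = 0.0349, 0.0489 and 0.0152). In these fits 284, 191 and 506 of all genes passed, against 13 in the main fit. The cause of these moves was not tested.

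The S-phase median between EMX1-FL and EMX1-X1 ranged from 0.02 to 0.33 when a library was left out, and the S-phase minus mitotic median from -0.10 to 0.46, the lowest without EMX1-FL replicate 1. For EMX1-X1 against the control the latter stayed between -0.43 and -0.16. The labels do not say whether replicate numbers pair the libraries. Deviations of same-numbered libraries had a mean correlation of -0.135 for EMX1-FL and the control. It was 0.11 for EMX1-X1 and the control and -0.352 for both isoforms. For other pairs the means were 0.0743, -0.0596 and 0.164. Deviations were taken from each group's own mean, so these values largely follow from the same-number ones and are no reference. Whether the numbers pair the libraries therefore cannot be told from them.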
